A study of Mus musculus with 6 samples.

Results

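The BCL2 family comprises proteins that decide whether the outer mitochondrial membrane is opened during cell death. Its RNAs were followed here through 10 genes: the anti-apoptotic genes Bcl2, Bcl2l1 and Mcl1, the pore formers Bax and Bak1, and the BH3-only genes Bid, Bcl2l11, Pmaip1, Bbc3 and Bmf. They were taken by gene name from the arrays' own annotation, which gave 10 of 10 genes and 13 probes out of 34574 gene names and 55358 probes. The cells were mProx24, a mouse kidney line labelled as proximal tubular, of the strain given as C57B6, grown in medium with fetal calf serum. Each of 6 conditions had 1 array.

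The stimulated conditions were triple stimuli with Rapamycin, triple stimuli, hypoxia and a pair of single stimuli at 20% oxygen, high glucose and high FFAs, where FFAs are free fatty acids. The control was kept at 20% oxygen with neither stimulus. Hypoxia meant 1% oxygen, given for 12 hours ahead of the palmitate step. The labels do not say whether it went on through that step. The fatty acid was palmitate, 150 µM on 0.15% bovine albumin for 9 hours, and arrays without it are labelled PBS. Triple stimuli combined 1% oxygen, high glucose and palmitate. Rapamycin, which inhibits mTORC1, a kinase complex of growth control, was given at 0.4 µg/ml for 12 hours ahead of palmitate. No glucose concentration was given in the sources used here. The labels of the single stimuli conflict: what the deposited value table calls high FFAs equals, spot by spot, the scanner file named high glucose, and the other way round (SD of the log2 difference 2.87e-07 and 2.89e-07). These arrays are called array A (scanner file labelled high glucose) and array B (scanner file labelled high FFAs), and no statement is made on which stimulus either received.

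In living cells, anti-apoptotic members hold the pore formers and the BH3-only proteins in check by binding the BH3 stretch of their partners. BH3-only proteins are the inputs of the pathway, made or activated by different stresses, and when they outweigh the anti-apoptotic members, the pore formers assemble, cytochrome c escapes and caspases are activated. Loss of proximal tubule cells by this route is a known part of kidney injury.

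Levels are given as log2 signal relative to the 75th percentile of the array, so 0 is the 75th percentile. A level belongs to its own probe and is not set against that of another gene. Genes were called different from a log2 difference of 1 upwards in either direction, which is 2-fold. With 1 array per condition there is no replicate, no test and no p-value, and the number of arrays limits the precision. The only spread available was technical: among 211 probes printed in at least 5 spots and well above background throughout, the median SD between spots of 1 array was 0.0591 to 0.071 on the log2 scale, and that of the difference between a pair of arrays at the same spot was 0.0672 to 0.0821. It leaves out all spread between cultures. In such bulk RNA, fewer cells of a type and less RNA per cell cannot be told apart.

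The scanner software called 40.3% to 43.8% of the 59305 spots of an array well above background and 0 saturated. All 6 arrays lay on 1 slide, with the 3 arrays at 1% oxygen in its second row and the 3 at 20% in its first, so oxygen and the row of the slide cannot be told apart. Of 12 proximal tubule markers, 4 (Lrp2, Cubn, Aqp1 and Ggt1) were well above background on all 6 arrays, and 6, among them Slc34a1, Slc5a2, Slc22a6 and Hnf4a, were on none. Of 3 epithelial markers measured, Krt8 and Krt18 were well above background on all 6 arrays and Epcam on none. Of 4 fibroblast markers 0 were on all 6 arrays. Markers of other cell types were mixed: of 3 leukocyte markers Cd68 and Itgam were on all 6 and Ptprc on none, and of 4 endothelial markers Kdr was on all 6 and Cdh5 and Tek on none.

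Of the 13 probes, 12 were well above background on all 6 arrays and 1 of the 2 Bcl2l11 probes was on none. The Bcl2l11 probes are shown because the values of this gene rest on the first alone. Both cover an interval wider than their 60 bases in mouse build mm9, so their letters lie in separate genomic stretches. The first lies on chromosome 2, chr2:127972893-127983988, plus strand, and lists RefSeq transcripts for 3 variants. The second, at chr2:127954736-127955417, lists an Ensembl transcript and a clone.
Bcl2l11 probe A_51_P484880: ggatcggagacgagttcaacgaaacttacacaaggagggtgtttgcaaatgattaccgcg
Bcl2l11 probe A_52_P348214: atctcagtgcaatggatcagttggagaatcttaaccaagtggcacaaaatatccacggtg

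Promoters of 3 BH3-only genes whose levels differed in pattern over the arrays are shown as RefSeq gives them for build GRCm38.p6. Each runs from 250 bases before to 50 after a start site. Capitals mark the FOXO motif GTAAACA or the hypoxia response core ACGTG, searched on both strands, so that TGTTTAC and CACGT are the same motifs read from the other strand. Each window was chosen among those of its gene because it holds the FOXO motif or, failing that, the hypoxia response core. The motifs do not overlap in these windows.
Bcl2l11 promoter, chr2:128125788-128126087, plus strand: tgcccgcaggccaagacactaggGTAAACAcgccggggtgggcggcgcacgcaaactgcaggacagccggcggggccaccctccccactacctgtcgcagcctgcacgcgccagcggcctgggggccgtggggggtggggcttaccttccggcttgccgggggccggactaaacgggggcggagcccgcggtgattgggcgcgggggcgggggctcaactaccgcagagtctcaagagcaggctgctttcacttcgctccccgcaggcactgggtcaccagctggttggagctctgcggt
Bbc3 promoter, chr7:16310011-16310310, plus strand: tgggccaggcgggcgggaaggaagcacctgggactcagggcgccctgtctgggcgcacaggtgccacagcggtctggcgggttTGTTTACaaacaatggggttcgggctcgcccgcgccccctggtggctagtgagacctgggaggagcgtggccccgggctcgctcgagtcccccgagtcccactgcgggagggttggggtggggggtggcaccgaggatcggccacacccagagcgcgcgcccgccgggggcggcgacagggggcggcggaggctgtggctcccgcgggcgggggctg
Bmf promoter, chr2:118547550-118547849, minus strand: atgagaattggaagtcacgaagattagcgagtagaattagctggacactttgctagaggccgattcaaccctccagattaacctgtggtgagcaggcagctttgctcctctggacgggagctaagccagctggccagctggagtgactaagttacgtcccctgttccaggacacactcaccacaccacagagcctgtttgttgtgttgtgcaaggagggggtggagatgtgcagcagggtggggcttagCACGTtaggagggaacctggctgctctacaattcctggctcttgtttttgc

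The motifs were sought in 16 promoters of 9 members. No promoter of Pmaip1 was among them, so none of these counts covers that gene. The FOXO motif was found in 2 of the 16, those of Bcl2l11 and Bbc3, and in 3.65% of all 32851 promoters of the same length. It began 227 bases before the start site in Bcl2l11 and 167 bases before it in Bbc3. The hypoxia response core stood in 3 of the 16, of Bax, Bbc3 (another start site) and Bmf, against 19.6% of all promoters, and the p53 half-site in 2 of the 16, of Bax and Bmf (another start site), against 8.36%. TGATGCAAT, the CHOP and ATF4 composite, and TGACGTCA, the cyclic AMP response element, were in 0 of the 16, against 0.192% and 1.79% of all promoters. A match describes letters in this window and is no evidence of binding.

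**Figure D1:**
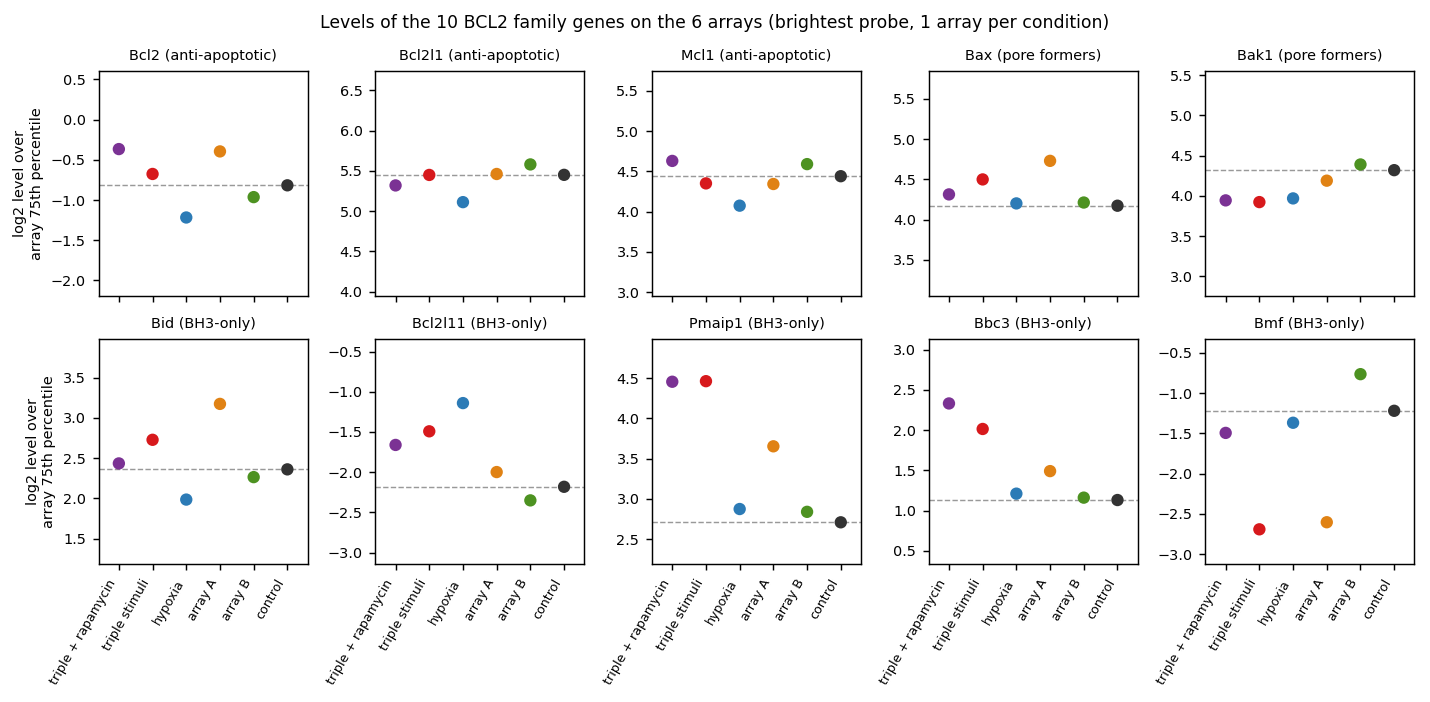
Log2 level of each of the 10 genes (brightest probe) on each array, as signal over the array's 75th percentile. Each point is 1 array, the dashed line is the control level and every panel has the same height in log2 units. Pmaip1 stands at 4.46 in both triple stimuli arrays against 2.71 in control, and Bmf at -2.69 in triple stimuli and -2.60 on array A against -1.22 in control.

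The widest differences of the family were in BH3-only genes and ran in opposite directions. Pmaip1 was higher under triple stimuli and, by less, on array A. Bmf was lower on the same arrays, and with Rapamycin it was 0.27 below control. Bcl2l11 had its highest level in hypoxia. The anti-apoptotic genes and the pore formers were within 2-fold of control on all 5 other arrays.

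Pmaip1 encodes NOXA, a BH3-only protein that binds MCL1 and is known as a target of p53 and of stress factors such as ATF4. Its probe lies on chromosome 18 of mm9, 66625088 to 66625147. Its level was 4.46 in triple stimuli with Rapamycin, 4.46 in triple stimuli, 2.87 in hypoxia, 3.65 on array A, 2.84 on array B and 2.71 in control. Both triple stimuli arrays were thus above all others, array A came next, and hypoxia, array B and control lay within 0.17 of each other. The log2 difference from control was 1.75 in triple stimuli, a 3.37-fold higher level, and 2.04% of all genes tested had a higher value. Against hypoxia, triple stimuli were higher by 1.59, or 3.01-fold, where 1.44% of genes were higher still.

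On array A the log2 difference of Pmaip1 from control was 0.94, or 1.92-fold, just short of the threshold. The triple stimuli arrays with and without Rapamycin differed by -0.01, well inside the technical spread. The sum of the 3 single differences was 1.24, against 1.75 for the combination. The gap of 0.51 lay between the 5th and 95th percentiles of 14991 genes (-0.60 and 0.56). Any error of the control array is counted 3 times in such a sum.

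Bbc3 encodes PUMA, a BH3-only protein that binds all anti-apoptotic members and is a target of p53 and FOXO factors. Its probe lies on chromosome 7, 16903403 to 16903462. Its level was 2.33 in triple stimuli with Rapamycin, 2.02 in triple stimuli, 1.21 in hypoxia, 1.49 on array A, 1.16 on array B and 1.13 in control. The order of the arrays resembled that of Pmaip1, except that the Rapamycin array stood above triple stimuli alone. The log2 difference of triple stimuli from control was 0.88, a 1.84-fold higher level, and 6.35% of genes had a higher value. The Rapamycin array was 0.32 above triple stimuli and 1.20 above control. Hypoxia and array B were within 0.08 of control, which is about the technical spread.

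Bid is cut by caspase 8 and so links death receptors to mitochondria. Its probe lies on chromosome 6, 120843464 to 120843523. Its level was 2.435 in triple stimuli with Rapamycin, 2.73 in triple stimuli, 1.99 in hypoxia, 3.17 on array A, 2.26 on array B and 2.36 in control. Array A was the highest and hypoxia the lowest. The log2 difference from control was 0.81 on array A (1.76-fold, with 2.76% of genes higher) and -0.38 in hypoxia. Triple stimuli were above hypoxia by 0.74, or 1.67-fold. Its spot lay in row 45 of 384. With levels centred within bands of spot rows its difference from control was -0.74 in hypoxia and -0.06 in triple stimuli. The direction in triple stimuli thus depended on that setting, under which the median of all genes was -0.12 and Bid lay 0.06 above it. The setting subtracts the median of all spots of a band, also of those not well above background, so bands move by different amounts. Before centring, the genes tested in the first 64 rows had a median of 0.01 in triple stimuli and -0.01 in hypoxia.

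Bmf encodes a BH3-only protein that is held at the actin cytoskeleton and released on stress or detachment. Its probe lies on chromosome 2, 118354496 to 118354555. Its level was -1.49 in triple stimuli with Rapamycin, -2.69 in triple stimuli, -1.37 in hypoxia, -2.60 on array A, -0.76 on array B and -1.22 in control. Array A and triple stimuli were the lowest and lay within 0.09 of each other, array B was the highest, and hypoxia and the Rapamycin array were closest to control.

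The log2 difference of Bmf from control was -1.39 on array A and -1.47 in triple stimuli, so that control was 2.61-fold and 2.78-fold higher. Few genes lay lower, 0.22% on array A and 0.345% in triple stimuli. Hypoxia differed from control by -0.15, and triple stimuli differed from hypoxia by -1.32. Triple stimuli with Rapamycin were above triple stimuli alone by 1.20, or 2.29-fold, where 1.56% of genes were higher, and stood 0.27 below control. On array B Bmf was above control by 0.46, or 1.37-fold, and 3.0% of genes were higher.

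Some cell type markers differed on the same arrays. The summed linear level of the 12 markers, in units of the 75th percentile, was 9.26 in triple stimuli with Rapamycin, 11.9 in triple stimuli, 24.2 in hypoxia, 12.9 on array A, 24.5 on array B and 22.3 in control. It was lowest on the arrays where Pmaip1 was highest, and low on both arrays where Bmf was lowest, but also on the Rapamycin array, where Bmf was not. Most of this sum came from Lrp2 and Aqp1. Lrp2 stood at 2.43 in triple stimuli and 2.85 on array A, against 3.53 in control, and Aqp1 at 2.265 and 2.004, against 3.198. Ggt1 went the other way, at -1.43 and -1.51, against -2.19 in control, and 6 of the 12 were on no array. Cubn stood at -0.12 in triple stimuli and -0.37 on array A, against -0.15 in control. The summed level of the epithelial markers was 203 in triple stimuli, 206 with Rapamycin and 154 on array A, against 175 in control. The leukocyte list, whose sum of 8.18 to 11.1 came mostly from Itgam, held Cd68 at 0.52 in triple stimuli and 1.05 on array A, against -0.87 in control. The part of these markers in the differences of Pmaip1 and Bmf was not tested.

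Bmf is a dim gene. In triple stimuli its level was 0.39 above that of the dimmest spot well above background (-3.08), and the scanner software gave its signal an error of 19.0% there and of 14.6% on array A. Among genes with a mean level below -1 measured on both arrays, the SD of the log2 difference was 0.57 in triple stimuli against control and 0.44 in triple stimuli with Rapamycin against triple stimuli. With the normexp background correction, which compresses dim signals, the differences of Bmf were -0.81 on array A, -0.71 in triple stimuli and 0.58 with Rapamycin, in the same directions but under 2-fold.

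Bcl2l11 encodes BIM, a BH3-only protein whose RNA is known to be raised by FOXO factors and by CHOP. Its level was -1.66 in triple stimuli with Rapamycin, -1.49 in triple stimuli, -1.14 in hypoxia, -2.00 on array A, -2.35 on array B and -2.18 in control. All 3 arrays at 1% oxygen were above all 3 at 20%, with a gap of 0.34 between the nearest of them. The log2 difference from control was 1.04 in hypoxia (2.06-fold, with 4.16% of genes higher) and 0.69 in triple stimuli (1.61-fold, with 8.81% higher). Triple stimuli were 0.35 below hypoxia, and the Rapamycin array differed from triple stimuli by -0.17.

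The Bcl2l11 spot lay in row 51 of 384. In the first 64 rows 9.55% of dim genes were at least 2-fold higher in hypoxia than in control, against 1.94% in the last 64 rows. With levels centred within 6 bands of spot rows the difference of Bcl2l11 was 0.68 in hypoxia, or 0.84 above the median of all genes, and 0.26 in triple stimuli, and the arrays at 1% and 20% oxygen overlapped. That centring uses all spots of a band. Before it, the genes tested in the first 64 rows had a median of -0.01 in hypoxia. The gene's other probe, in row 116, was not well above background.

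**Figure D2:**
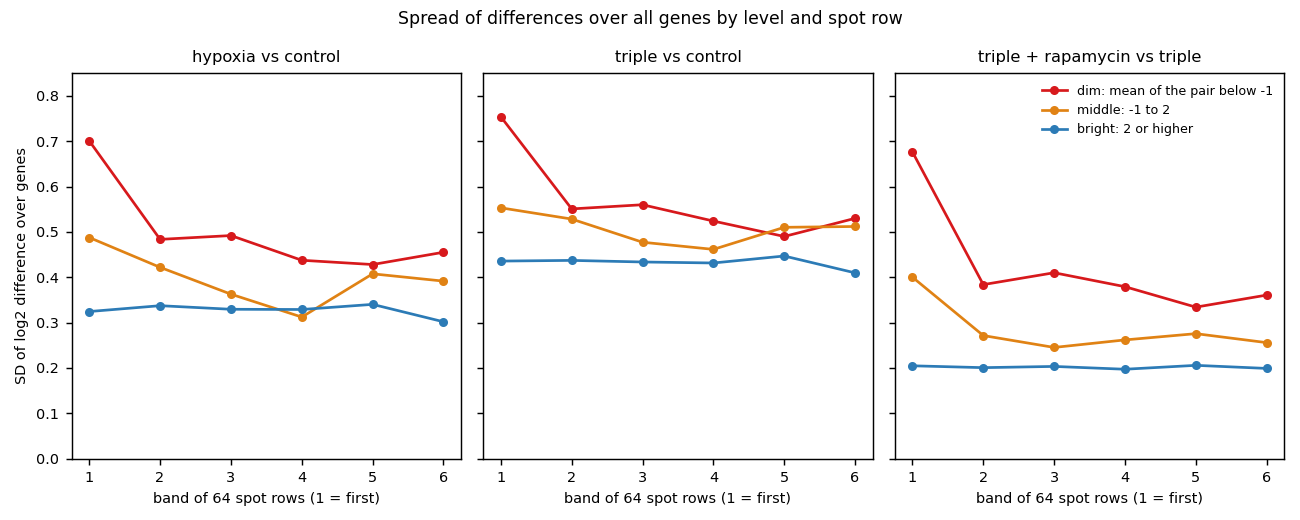
SD over all genes of the log2 difference in 3 comparisons, by band of 64 spot rows (x axis) and by mean level of the pair of arrays (colours). Dim genes in the first band have an SD of 0.70 in hypoxia against control, compared with 0.43 to 0.49 in the other bands, while bright genes have an SD of 0.30 to 0.34 in all 6 bands.

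Of the anti-apoptotic genes, Bcl2l1, which encodes BCL-XL, had levels of 5.32 in triple stimuli with Rapamycin, 5.45 in triple stimuli, 5.11 in hypoxia, 5.46 on array A, 5.58 on array B and 5.45 in control. Its range over the 6 arrays was 0.47, and triple stimuli, array A and control lay within 0.0117 of each other, which is inside the technical spread. Hypoxia was the lowest, 0.34 below control. The probe lies on chromosome 2, 152606404 to 152606463, and a second, dimmer one (152655185 to 152655244) gave -0.23 for hypoxia. The 2 probes had the same sign on 5 of 5 arrays and differed by at most 0.11.

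Mcl1 encodes a short-lived anti-apoptotic protein and is the main partner of NOXA. Its level was 4.63 in triple stimuli with Rapamycin, 4.35 in triple stimuli, 4.07 in hypoxia, 4.34 on array A, 4.59 on array B and 4.44 in control. Hypoxia was again the lowest, 0.37 below control, and the Rapamycin array the highest. The brighter probe lies on chromosome 3, 95466855 to 95466914. The dimmer probe (95465543 to 95465602, spot row 56) gave -0.68 in hypoxia, the largest gap between the 2 probes, 0.31. Rapamycin against triple stimuli was 0.28 by the brighter probe and 0.39 by the dimmer one. The probes had the same sign on 4 of 5 arrays, and on array B, at 0.15 and -0.08, they did not.

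**Figure D3:**
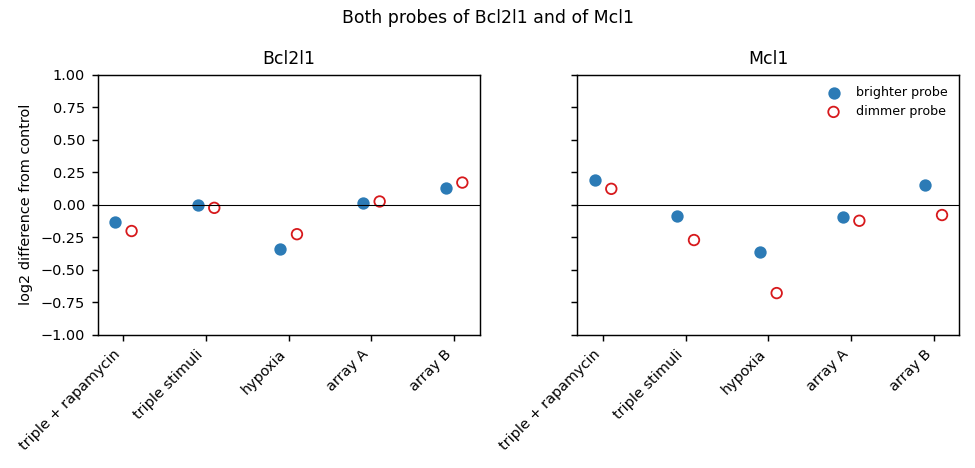
Log2 difference from control on each of the other 5 arrays for both probes of Bcl2l1 and of Mcl1. Filled points are the brighter probe and open points the dimmer one. Both probes place hypoxia lowest, at -0.34 and -0.23 for Bcl2l1 and at -0.37 and -0.68 for Mcl1.

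Bcl2, the founding anti-apoptotic gene, was measured by a probe on chromosome 1, 108608970 to 108609029, whose only listed RefSeq transcript is variant 2, so the values may not stand for the gene's other transcript. Its level was -0.37 in triple stimuli with Rapamycin, -0.68 in triple stimuli, -1.22 in hypoxia, -0.40 on array A, -0.96 on array B and -0.82 in control. Hypoxia was the lowest here too, 0.40 below control, and array A was 0.42 above control. Triple stimuli exceeded hypoxia by 0.54. The 3 anti-apoptotic genes were thus all lower in hypoxia than in control, by 0.34 to 0.40, where the median of all genes was -0.01, and 87.9% to 91.3% of genes had higher values. This was not particular to them, since the pore former Bak1 (-0.35) and the BH3-only gene Bid (-0.38) were lower by as much. Of all 10 members, 6 were below control in hypoxia and 4 above. Centred within bands of spot rows the differences were -0.79 for Bcl2, -0.73 for Bcl2l1 and -0.23 for Mcl1, where the median of all genes was -0.16. That centring subtracts the median of all spots of a band, and it moved the bands by different amounts. Before it, the genes tested had a median of 0.0046 in rows 129 to 192, which hold Bcl2 and Bcl2l1. In rows 257 to 320, which hold Mcl1, the median was -0.0094. With the normexp background correction the difference of Bcl2 was -0.16, less than its reported size.

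Bax, a pore former and p53 target, had levels of 4.31 in triple stimuli with Rapamycin, 4.50 in triple stimuli, 4.20 in hypoxia, 4.73 on array A, 4.21 on array B and 4.17 in control (chromosome 7, 52717122 to 52717181). Array A was the highest and 0.56 above control, a 1.47-fold difference exceeded by 6.47% of genes. Triple stimuli were 0.33 above control, and hypoxia, array B and control lay within 0.04.

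Bak1, the other pore former, is held by MCL1 and BCL-XL in healthy cells. Its level was 3.94 in triple stimuli with Rapamycin, 3.92 in triple stimuli, 3.97 in hypoxia, 4.19 on array A, 4.39 on array B and 4.32 in control (chromosome 17, 27156807 to 27156866). The 3 arrays at 1% oxygen lay within 0.05 of each other and all below the 3 at 20%, with a gap of 0.22. The differences from control were -0.35 in hypoxia and -0.40 in triple stimuli, and Rapamycin differed from triple stimuli by 0.02.

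**Figure D4:**
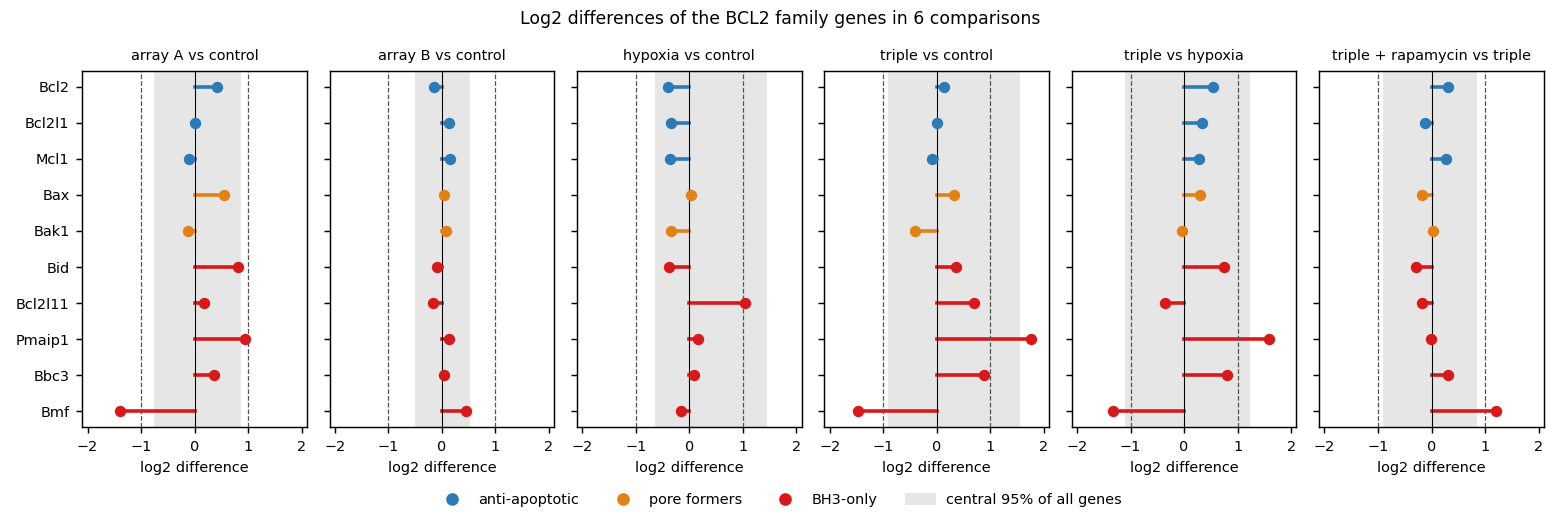
Log2 difference of each of the 10 genes (rows) in 6 comparisons (panels), coloured by role. The grey area holds the central 95% of all genes and dashed lines mark 2-fold. Bmf passes 2-fold in 4 panels, Pmaip1 in 2 and Bcl2l11 in 1.

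Counted over the family, triple stimuli against control had 1 of 10 members at least 2-fold higher (Pmaip1) and 1 lower (Bmf), against 5.08% of all genes higher and 1.72% lower. Triple stimuli against hypoxia, which adds glucose and palmitate within 1% oxygen, gave the same 2 genes, against 3.5% higher and 3.03% lower. Hypoxia had 1 member higher (Bcl2l11) and 0 lower, against 4.42% and 0.469%. On array A 0 were higher and 1 was lower (Bmf), against 1.56% and 0.908%, and on array B 0 were higher and 0 lower, against 0.31% and 0.281%. With Rapamycin 1 was higher (Bmf) and 0 lower than in triple stimuli alone, against 1.95% and 2.15%.

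A count of 1 gene in 10 cannot be set apart from these shares. At 1.5-fold, 4 members differed in triple stimuli against control (Pmaip1, Bbc3 and Bcl2l11 higher, Bmf lower), where 18.7% of all genes did. In triple stimuli against hypoxia 4 did (Pmaip1, Bbc3 and Bid higher, Bmf lower), where 16.4% of all genes did. On array A 3 did (Pmaip1 and Bid higher, Bmf lower), against 10.4%. In hypoxia 1 did (Bcl2l11), against 11.1%, with Rapamycin 1 did (Bmf), against 9.11%, and on array B 0 did, against 3.24%. All genes in these counts are BH3-only. By their brighter probes, 0 of the 3 anti-apoptotic genes and 0 of the 2 pore formers reached 1.5-fold in the 6 comparisons, while the dimmer Mcl1 probe did in hypoxia.

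The median over all 10 members was 0.23 in triple stimuli, 0.27 on array A, 0.06 on array B and -0.24 in hypoxia, each against control, where medians over all genes lay between -0.01 and 0.02. The comparisons with control share the control array.

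By oxygen, 1 of 10 members (Bcl2l11) was higher on all 3 arrays at 1% than on all 3 at 20%, and 2 (Bak1 and Bcl2l1) were lower, against 11.2% and 14.3% of 19048 genes. The Bcl2l1 gap was 0.0012, far inside the technical spread, and with quantile normalization it closed.

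Around the family, 6 lists of 72 further apoptosis genes were read, 70 of them on the arrays. The lists were chosen with earlier results of these data known, so their counts are a description only. Of 14 measured transcription factors known to drive BCL2 family genes, 6 were at least 2-fold higher in triple stimuli than in control and 0 were lower. Among all genes 5.08% were higher and 1.72% lower. The 6 included Atf3 at 3.66, Ddit3 (which encodes CHOP) at 2.95, Jun at 2.06 and Myc at 2.05. On array A the same 4 named genes were higher, at 2.99, 2.83, 1.17 and 1.45, where 1.56% of all genes were. In hypoxia 1 of 14 was, Ddit3 at 2.02, where 4.42% of all genes were. With Rapamycin 0 of 13 differed 2-fold from triple stimuli, where 1.95% of all genes were higher and 2.15% lower. Of the 13, 1 was above 0, where 44.7% of all genes were and the median of all genes was -0.03.

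Of the other BCL2 family genes, 9 were measured in hypoxia and 2 were at least 2-fold higher, against 4.42% of all genes. The 2 were Bnip3 (3.14, spot in the first 64 rows) and Bnip3l (1.79). Both encode receptors for the removal of mitochondria and are known targets of the hypoxia factor HIF. They stood at 2.73 and 1.49 in triple stimuli. Of 12 genes of the apoptosome and caspases, 0 were 2-fold different in any comparison, with medians of -0.16 in triple stimuli and -0.19 in hypoxia. Of 7 measured inhibitors of apoptosis, 1 was higher in triple stimuli, Birc3 at 1.21, which encodes cIAP2, against 5.08% of all genes. Birc3 was dim, at -1.78 in triple stimuli and -2.99 in control, where the dimmest spot well above background was at -3.65. Among genes with a mean level below -1 measured on both arrays, 4.88% were at least 2-fold higher in this comparison. Of 8 measured death receptors and adaptors, 0 differed 2-fold from control on arrays A and B, in hypoxia or in triple stimuli. In triple stimuli against hypoxia 1 was higher, the TWEAK receptor gene Tnfrsf12a at 1.12, against 3.5% of all genes. The 11 measured regulators of MCL1 and BIM protein gave 0 in all 6 comparisons.

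The genes with the most similar pattern over the 6 arrays were sought by Pearson correlation among 1155 genes that were well above background on all arrays and spanned at least 1 log2 unit. Such values are a description over 6 arrays and carry no test. For Pmaip1 they were Nr4a1 (r = 0.995), Jun (0.994) and Tmem74 (0.993). For Bbc3 they were Cttnbp2nl (0.997), Relb (0.989) and Wdr92 (0.986), and for Bid Comtd1 (0.999), Mettl1 (0.990) and Hoxa11 (0.986). For Bcl2l11 they were Gdap10 (0.994), Tet2 (0.990) and Bhlhe40 (0.990). For Bmf the values were lower, with Arhgef17 (0.973), Mxd3 (0.971) and Rasl10a (0.963).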

How the data were processed

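RNA of 6 mProx24 cultures was read on 6 one-colour (Cy3) Agilent arrays. The submitters' processing notes name Agilent Feature Extraction 10.7.3.1. Per the file headers, the authors' scanner files hold a linear intensity for each spot after background subtraction and detrending, and arrays were not scaled to each other. The software's marks of 0 or 1 for background and outliers, and its error of each signal, were used as deposited. The deposited value table holds a ratio, which its values show to be the same signal over the 75th percentile of all spots of the array. Its direction and scale were read from the values. Its columns have medians of 0.0505 (control), 0.0516 (labelled high glucose), 0.0535 (labelled high FFAs), 0.0562 (hypoxia), 0.0544 (triple stimuli) and 0.0561 (triple stimuli with Rapamycin).

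Analyses started from the scanner files (Python 3.11.15, pandas 2.3.3; limma 3.58.1 for normexp). Levels were log2 signal minus the log2 75th percentile of non-control spots, with repeat spots of a probe averaged. In all, 323 probes that carried an outlier mark on any array were left out, none of them a member's. A gene was represented by its brightest probe on average. It entered a comparison if either array had it well above background. A side not called so was raised to the level of that array's dimmest spot called so, where it was lower, and the difference was then a bound. Calls required a log2 difference of at least 1. No member's brightest probe needed such a bound. Positions are mm9, as the files give them, with no exon annotation used here. Of 34574 gene names, 19779 matched a RefSeq symbol, with 10 of 10 members among them. The steps were tested on data simulated from the control array with the same noise at all levels. These data had no row effect, no scale difference between arrays and no outlier marks, so those limits were not tested.

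Members, lists, alternatives and the rule for named genes were chosen with earlier results of these data known. The rule names all members, list genes at least 2-fold different (at most 4 per list and comparison), and the 3 closest patterns for members spanning at least 1 log2 unit.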

Additional observations from a re-analysis of the deposited data

How the results depend on the processing

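Of 69 counts recomputed under other settings, 57 were within 1.5 times the reported count and 12 were not. One setting, leaving out members with spots in the first 64 rows, was chosen after seeing the data. The count in hypoxia, 1, became 0 with scaling to the median, quantile normalization, normexp and centring within bands of spot rows (Bcl2l11 at 0.89, 0.90, 0.75 and 0.68), and 0 without the first 64 rows, which hold Bcl2l11. Normexp gave 0 for array A, 0 for Rapamycin against triple stimuli, and 1 in place of 2 for triple stimuli against control and against hypoxia, since Bmf was under 2-fold. At 1.5-fold the counts were 3 for array A, 4 for triple stimuli against control and 4 for triple stimuli against hypoxia. By oxygen the count became 2 with quantile normalization (without Bcl2l1) and 2 with band centring (without Bcl2l11). Some settings could change few members or none, so part of the unchanged counts and differences was fixed in advance. No member's probe carried an outlier mark, and every member's brightest probe was well above background on all arrays. Averaging probes could change only Bcl2l1 and Mcl1, and the deposited ratio holds the same signal. Of 480 single differences 382 moved by no more than the technical spread and 98 by more, and 18 changed sign, 9 of them under band centring. All 18 were 0.37 or less in size as reported. Among them, under band centring, were Pmaip1, Bbc3 and Bax in hypoxia (-0.22, -0.31 and -0.30) and Bid and Bcl2 in triple stimuli (-0.06 and -0.11). Scaling to the median placed the median of all genes at -0.16 in hypoxia and -0.12 in triple stimuli, as did band centring. Both settings subtract a median taken over all non-control spots, of which 40.3% to 43.8% per array were well above background. With the 75th percentile, the median of all genes was -0.01 in both comparisons. Bmf in triple stimuli ranged from -1.58 to -0.71. No paired analysis was possible because each condition had 1 array. Signal close to background limits Bmf and Bcl2l11, and other causes of these shifts were not tested.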
